A study of Mus musculus with 8 samples.

Results

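Collagen VI and the FACIT collagens are filament-forming and fibril-associated members of the collagen family, and 9 of their genes were described here out of 37991 genes in the files. The 9 genes were taken by mouse symbol: 5 chains of collagen VI (Col6a1, Col6a2, Col6a3, Col6a5 and Col6a6) and 4 FACIT genes (Col12a1, Col14a1, Col16a1 and Col20a1). They were selected on their normalized read counts in these 8 libraries, the ratios between chains and the difference between the groups, all already known. Their differences between the groups are therefore given as a description, and nothing is inferred from whether they pass a threshold.

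Collagen VI is assembled inside the cell from an alpha1, an alpha2 and an alpha3 chain into monomers that join to tetramers and are secreted to form beaded microfilaments around cells. The alpha5 and alpha6 chains, encoded by Col6a5 and Col6a6, resemble alpha3 and can take its place. Collagen VI is a major component of the matrix around muscle fibres and satellite cells, fibroblastic cells are its main source in muscle, and mutations of its 3 main chains cause muscular dystrophies in people. FACIT collagens have short triple helices broken by non-collagenous domains and attach to the surface of collagen fibrils instead of forming fibrils of their own.

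RNA was measured in 8 libraries of fibro/adipogenic progenitors (FAPs), mesenchymal cells of skeletal muscle that can become fibroblasts or adipocytes. In both groups the mice were of mixed background, their tibialis anterior had been injured with glycerol, and FAPs were purified from it 3 days later. The 5 FAP-ctrl libraries came from wild type muscle, and the 3 FAP-no cilia libraries from muscle in which a floxed Ift88 allele had been conditionally deleted to remove the primary cilium. The driver of the deletion, the age of the mice and the number of animals per library were not given in the sources used here. Levels are normalized read counts, that is, reads per gene divided by a size factor of the library. Each log2 difference is FAP-no cilia minus FAP-ctrl on the log2(normalized read count + 1) scale and carries its standard error (SE) from a limma-trend fit over 14768 genes.

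Between 15.3 and 43.9 M gene reads stood behind each library. Ift88, which encodes an intraflagellar transport protein, stood at 477, 457, 540, 566 and 594 in FAP-ctrl 1 to 5 and at 211, 195 and 322 in FAP-no cilia 1 to 3, so the groups did not overlap. The FAP marker Pdgfra lay between 33773 and 51005 in every library. Xist and Y-linked genes marked FAP-ctrl 1 and 2 and all 3 FAP-no cilia libraries as male and FAP-ctrl 3, 4 and 5 as female, so part of any difference between the groups cannot be told apart from sex in the 8 libraries together. Differences over the 5 male libraries, of which 2 are FAP-ctrl, are given beside the others. In bulk RNA, fewer cells that express a gene and less RNA of it per cell cannot be told apart.

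Levels were compared between genes per kb of exon, with the union of a gene's annotated exons as the length. On this scale Col6a1 was the highest of the 9 genes in FAP-ctrl at 13343 ± 3618 (SD, n = 5) normalized reads per kb, followed by Col6a3 at 9587 ± 1004 and Col6a2 at 4439 ± 1467. Among 14266 genes ranked by the mean of this level over all 8 libraries, Col6a1 was at place 62, Col6a3 at 77 and Col6a2 at 236. The FACIT genes Col14a1 (2522 ± 381) and Col12a1 (1388 ± 211) came next, then Col16a1 (674 ± 209), all in normalized reads per kb. The remaining 3 genes were far lower, with Col6a6 at 41.6 ± 15.9, Col20a1 at 30.5 ± 4.04 and Col6a5 at 11.3 ± 2.74 per kb. The ranges of neighbours overlapped in FAP-ctrl for Col6a1 and Col6a3, for Col6a2 and Col14a1, and for Col6a6 and Col20a1. The FAP-ctrl ranges did not overlap between Col14a1 (1998 to 3029 per kb) and Col12a1 (1164 to 1622), or between Col12a1 and Col16a1 (365 to 834). In FAP-no cilia the order of the 9 genes was the same, with Col6a1 at 10420 ± 550 and Col6a5 at 6.61 ± 1.79 normalized reads per kb (SD, n = 3). Reads of the 5 collagen VI chains made up 0.572 to 1.02% of a library in FAP-ctrl, against 0.596 to 0.712% in FAP-no cilia, and reads of the 4 FACIT genes 0.129 to 0.193% and 0.149 to 0.188%.

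**Figure D1:**
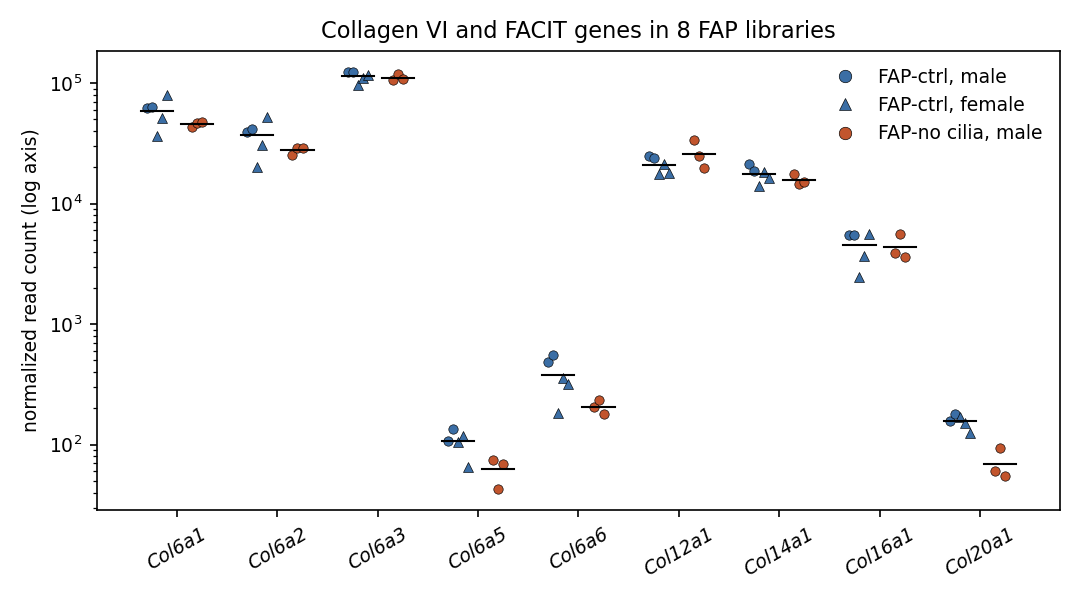
Normalized read count (log axis) of the 9 genes in each library, with FAP-ctrl in blue (circles male, triangles female) and FAP-no cilia in orange, and a bar at each group's mean. Col6a1, Col6a2 and Col6a3 lie at 20129 or above in every library, Col6a5 and Col20a1 lie at 180 or below, and Col20a1 alone has all FAP-no cilia points below all FAP-ctrl points.

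An exon pattern of collagen genes, which played no part in choosing the 9 genes, was present in them to unequal degrees. A collagen helix repeats glycine and 2 further residues, which takes 9 coding bases, and exons of the helix are often whole multiples of that length. Of the internal coding exons of the longest coding transcript, 19 of 33 in Col6a1, 18 of 25 in Col6a2 and 19 of 41 in Col6a3 were a multiple of 9 bases long. Col6a5 had 19 of 37 and Col6a6 19 of 34. Among the FACIT genes the count was 45 of 67 in Col16a1, 14 of 63 in Col12a1, 13 of 45 in Col14a1 and 9 of 34 in Col20a1, and the share over all coding genes was 14.3%. Over the 9 genes the share ran from 22.2% in Col12a1 to 72% in Col6a2. The shares of other collagens are not given here. By position, Col6a1 (ENSMUSG00000001119, chr10:76708792-76726168) and Col6a2 (ENSMUSG00000020241, chr10:76595762-76623630) lie on the minus strand of the same chromosome region in GRCm38. Col6a5 (ENSMUSG00000091345, chr9:105856078-105960643) and Col6a6 (ENSMUSG00000043719, chr9:105687809-105828160) also lie near each other on one strand, the minus strand. Col6a3 (ENSMUSG00000048126, chr1:90765923-90843971, minus strand) stands alone on another chromosome.

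The bases before the start sites of the 3 main collagen VI chains are shown because Col6a1 and Col6a2 kept a near constant ratio over the libraries and Col6a3 followed them less closely. They are from RefSeq on GRCm38.p6, minus strand, written 5′ to 3′, and end just before the most upstream annotated start, except for the 30-base stretch of Col6a1, which ends 2 bases before the RefSeq start. Capitals mark matches on either strand to a GC box (GGGCGG) or to the pyrimidine-rich element CCCTCC, the second of which was chosen after the sequences were seen.
Col6a1, chr10:76726169-76726294: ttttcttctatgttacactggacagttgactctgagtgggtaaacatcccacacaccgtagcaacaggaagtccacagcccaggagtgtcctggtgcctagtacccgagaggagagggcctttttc
Col6a1, 30-base stretch, chr10:76726046-76726075: ctctttgcacctCCCTCCCTCCCTCCCTCC
Col6a2, chr10:76623631-76623880: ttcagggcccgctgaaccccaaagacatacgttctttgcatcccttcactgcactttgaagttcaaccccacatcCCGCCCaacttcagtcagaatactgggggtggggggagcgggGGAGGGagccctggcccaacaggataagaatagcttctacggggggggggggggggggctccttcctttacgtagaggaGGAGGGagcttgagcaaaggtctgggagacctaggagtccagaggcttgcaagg
Col6a3, chr1:90843972-90844221: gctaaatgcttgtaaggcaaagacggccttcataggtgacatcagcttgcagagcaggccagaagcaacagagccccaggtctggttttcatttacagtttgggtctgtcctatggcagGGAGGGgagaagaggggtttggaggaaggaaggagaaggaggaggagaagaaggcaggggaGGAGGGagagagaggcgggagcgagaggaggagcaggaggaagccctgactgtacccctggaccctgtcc

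The 250 bases before the RefSeq start of Col6a1 held 7 matches to CCCTCC, counted with overlaps, and 4 of them lie in the 30-base stretch. Of all 32851 RefSeq windows of this length, 35.2% held at least 1 such match and 4.14% at least 3. The windows of Col6a2 at its more upstream start and of Col6a3 held 2 each, and both end at the most upstream annotated start. The window of Col6a1 does not, since its most upstream annotated start lies 124 bases before the RefSeq start. The 30-base stretch therefore lies inside the annotated gene, and the 126 bases printed before that upstream start held 0 matches to CCCTCC. A GC box (in 32.7% of all windows) was in the windows of Col6a2, Col6a5, Col6a6 and Col16a1. A TATA box (TATAAA, in 12.4% of all windows) was in none of the 8 windows of the 7 genes that had one, and a CCAAT box (CCAAT, in 33.9%) was in the window of Col16a1 alone. The 9-letter Gli site GACCACCCA, a sequence recognised by the transcription factors at the end of the Hedgehog pathway, was in 0.225% of all windows and in none of the 8. These are matches of letters and were not tested as binding sites.

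Col6a1, the alpha1 chain, had normalized read counts of 62250, 62989, 36154, 51704 and 79109 in FAP-ctrl 1 to 5 and of 42924, 46468 and 47520 in FAP-no cilia 1 to 3. The FAP-ctrl values spanned 2.19-fold, from FAP-ctrl 3 to FAP-ctrl 5, and enclosed the narrow FAP-no cilia range. The means were 58441 ± 15847 (SD, n = 5) and 45637 ± 2408 (SD, n = 3), for a log2 difference of -0.31 ± 0.22 (SE). Without FAP-ctrl replicate 3 the difference was -0.47, without FAP-ctrl replicate 5 it was -0.19, and over the male libraries it was -0.46 ± 0.15.

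Col6a2, the alpha2 chain, was high and low in the same FAP-ctrl libraries. Its normalized read counts were 39570, 41311, 20129, 30964 and 52835 in FAP-ctrl, against 25134, 29118 and 28900 in FAP-no cilia. FAP-ctrl 3 was again the lowest and FAP-ctrl 5 the highest of the 8 libraries, 2.62-fold apart. The log2 difference was -0.35 ± 0.26 (SE), -0.55 without FAP-ctrl replicate 3, -0.20 without FAP-ctrl replicate 5 and -0.55 ± 0.14 over the male libraries.

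Col6a3, the alpha3 chain and the longest of the main chains, was much steadier. It had normalized read counts of 124420, 124846, 96111, 109930 and 118124 in FAP-ctrl and of 107309, 119650 and 107394 in FAP-no cilia. The FAP-ctrl values spanned 1.30-fold and enclosed those of FAP-no cilia. The log2 difference was -0.04 ± 0.16 (SE), between -0.10 and -0.0042 with 1 library left out, and -0.16 ± 0.21 over the male libraries. The coefficient of variation (CV, the SD as a percent of the mean) over the FAP-ctrl libraries was 27.1% for Col6a1, 33.1% for Col6a2 and 10.5% for Col6a3. The median CV of the 4840 genes with a mean of at least 1000 was 9.44% in FAP-ctrl, against 8.61% in FAP-no cilia, where the 3 chains had 5.28%, 8.08% and 6.37%.

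The ratio of Col6a1 to Col6a2 per kb was 2.99, 2.90, 3.41, 3.17 and 2.85 in FAP-ctrl, against 3.25, 3.03 and 3.13 in FAP-no cilia. It moved over the 8 libraries by 1.2-fold in all, while Col6a2 itself moved by 2.62-fold. The ratio of Col6a1 to Col6a3 was 1.37, 1.38, 1.03, 1.28 and 1.83 in FAP-ctrl, against 1.09, 1.06 and 1.21 in FAP-no cilia, a 1.78-fold range. The ratio of Col6a2 to Col6a3 was 0.457, 0.475, 0.301, 0.405 and 0.643 in FAP-ctrl, against 0.337, 0.350 and 0.387 in FAP-no cilia, a 2.14-fold range. All 3 ratios overlapped between the groups over the 8 libraries. In the male libraries they did not: the FAP-no cilia values were above those of FAP-ctrl 1 and 2 for Col6a1 to Col6a2 (log2 difference 0.09) and below them for both ratios to Col6a3 (-0.29 for Col6a1 and -0.38 for Col6a2). For Col6a1 to Col6a2 the nearest values were 3.03 and 2.99. Of all genes tested, 26.2% did not overlap between the groups in the male libraries. The 3 ratios are built from 3 genes and do not vary independently, so nothing is read from this. Over all libraries, FAP-ctrl 3 held the lowest and FAP-ctrl 5 the highest value of both ratios to Col6a3. As group means the ratio of Col6a1 to Col6a2 was 3.06 ± 0.232 (SD, n = 5) and 3.14 ± 0.107 (SD, n = 3), and that of Col6a2 to Col6a3 was 0.456 ± 0.124 and 0.358 ± 0.0260.

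The size of a ratio between chains depends on the length used, since the annotated exons of Col6a2 add up to 8326 bases and its longest transcript to 4912. With the longest transcript as the length, Col6a1 stood to Col6a2 at 1.93 in FAP-ctrl, against 1.98 in FAP-no cilia, and Col6a2 to Col6a3 at 0.653 and 0.512. The ratio of Col6a1 to Col6a3 then lay between 0.927 and 1.65 over the libraries. Col6a3 was then the higher chain in FAP-ctrl 3 and FAP-no cilia 1 and 2, while the group means kept Col6a1 above Col6a3. The length cancels in a comparison between libraries, which is unaffected.

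**Figure D2:**
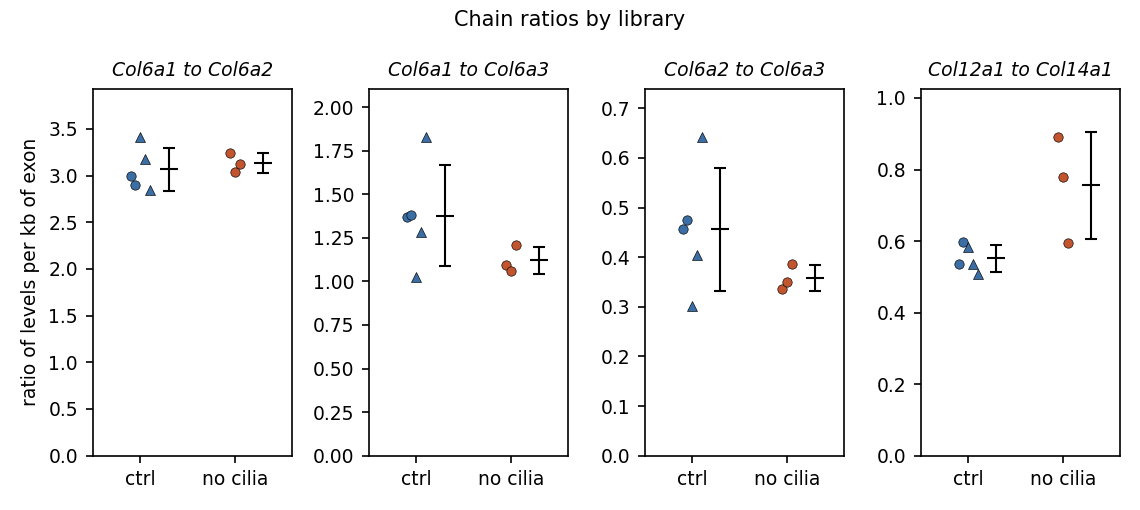
Ratio of levels per kb of exon for 4 pairs of chains, 1 point per library (FAP-ctrl blue, circles male and triangles female; FAP-no cilia orange), with the mean and SD of each group beside the points. The Col6a1 to Col6a2 ratio stays between 2.85 and 3.41, the ratios to Col6a3 are widest in FAP-ctrl, and the Col12a1 to Col14a1 ratio is 0.891 and 0.780 in FAP-no cilia 1 and 2 against at most 0.596 in FAP-ctrl.

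How closely another gene followed a chain was measured as the SD over the 8 libraries of the log2 ratio of both genes, over 10511 genes with a mean normalized read count of at least 100; a low SD is a near constant ratio. Col6a2 was at place 4 from Col6a1 (SD 0.087), after Adamts10 (0.064), Sulf2 (0.077) and Col5a3 (0.086), and the median over all genes was 0.410. From Col6a2, Adamts10 (0.076), Col6a1 and Col5a3 (0.109) were the nearest. Adamts10 is a secreted metalloprotease linked to fibrillin, Sulf2 a heparan sulfate sulfatase and Col5a3 a chain of the fibril collagen V. Col6a3 was at place 875 from Col6a1 (0.271) and 1056 from Col6a2 (0.345), farther than these but below the medians over all genes (0.410 and 0.487). Seen from Col6a3, Col6a1 was at place 7515 and Col6a2 at place 9012, both with an SD above the median from Col6a3 (0.220). The place thus depends on which gene is the reference. The genes nearest to Col6a3 were Napa, Grk6 and Get4 (0.042 to 0.045), none of them a matrix gene, and Col5a2 was at place 295 (0.094). All these values share the same 8 libraries, with their depth and base composition.

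Base composition moved with the libraries. Tested genes were put into 5 classes of equal size by the GC content of the longest transcript. In the class with the highest GC content (55.1 to 69.1%), the median log2 deviation from the mean of the 8 libraries ran from -0.22 in FAP-ctrl 3 to 0.18 in FAP-ctrl 2, and was 0.17 in FAP-ctrl 5. Col6a1 (56.7% GC) deviated by -0.53 in FAP-ctrl 3, by 0.27 in FAP-ctrl 2 and by 0.60 in FAP-ctrl 5, and Col6a2 (55.2% GC) by -0.68, 0.36 and 0.72. Within that GC class Col6a1 lay at percentile 11.9 in FAP-ctrl 3 and 89.7 in FAP-ctrl 5. Col16a1, with the highest GC content of the 9 genes at 61.4%, deviated by -0.81, 0.34 and 0.38 in these libraries. Col6a3 (54.5% GC, in the class below) deviated by -0.23, 0.14 and 0.06. The part of base composition in the swing of Col6a1, Col6a2 and Col16a1 was not tested.

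**Figure D3:**
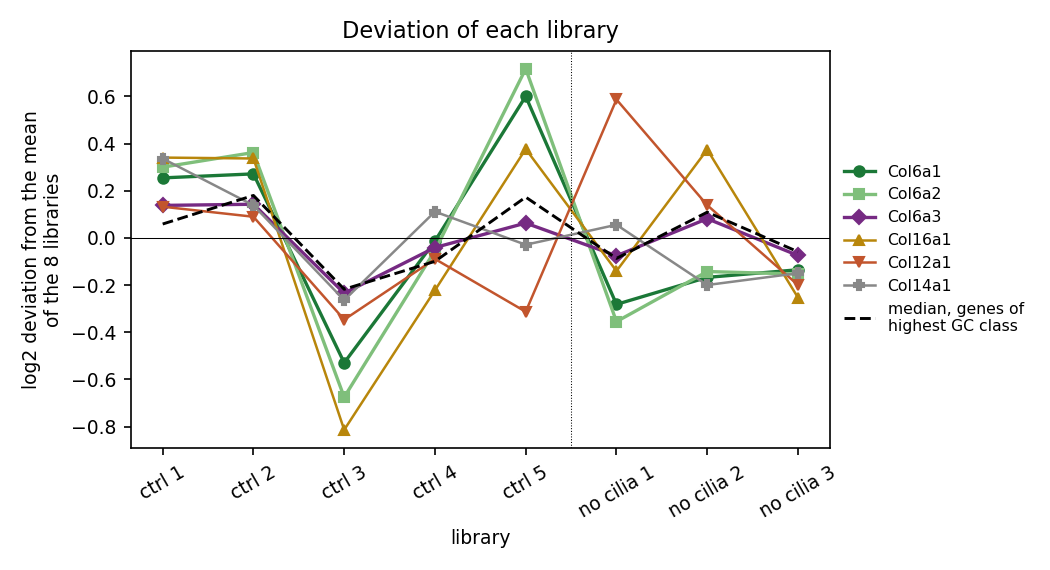
Log2 deviation of 6 collagen genes from their mean over the 8 libraries, 1 line per gene, with the median of the genes of the highest GC class as a dashed line. Col6a1 and Col6a2 run together, lowest in FAP-ctrl 3 and highest in FAP-ctrl 5, while Col6a3 stays within 0.24 of its mean and Col12a1 is highest in FAP-no cilia 1.

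The alpha3-like chains Col6a5 and Col6a6 were expressed at a small fraction of Col6a3. Col6a6 had normalized read counts of 488, 555, 183, 357 and 322 in FAP-ctrl and of 204, 233 and 181 in FAP-no cilia. Only FAP-ctrl 3 lay within the FAP-no cilia range, and the male FAP-ctrl libraries were the highest 2. The means were 381 ± 146 (SD, n = 5) and 206 ± 25.9 (SD, n = 3), and the log2 difference of -0.79 ± 0.31 (SE) was -1.03 without FAP-ctrl replicate 3 and -1.34 ± 0.17 over the male libraries. That last SE rests on 2 FAP-ctrl libraries. With sex as a covariate over all libraries, limma-trend gave the same -1.34 with an adjusted p of 0.657. Col6a5 had counts of 108, 136, 105, 117 and 65.6 in FAP-ctrl and of 74.4, 43.0 and 69.2 in FAP-no cilia. Here FAP-ctrl 5 was the library within the FAP-no cilia range, and the log2 difference was -0.76 ± 0.27 (SE), or -0.99 ± 0.31 over the male libraries. As few as 24 reads stood behind Col6a5 in FAP-no cilia 2, a depth that limits the precision of its value. The alpha3-like chains together, with Col6a4, made up 0.667, 0.730, 0.394, 0.595 and 0.481% of all alpha3 and alpha3-like RNA per kb in FAP-ctrl. In FAP-no cilia they made up 0.383, 0.314 and 0.325%, below every FAP-ctrl library, though the nearest values were close (0.383 and 0.394%). Neither Col6a5 nor Col6a6 alone was without overlap. Of all genes tested, 7.31% did not overlap between the groups, and nothing is read from the pooled share.

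Col12a1 encodes collagen XII, a FACIT of tendon, fascia and muscle connective tissue that binds fibrils of collagen I. It was the only 1 of the 9 genes with a positive difference. Col12a1 (ENSMUSG00000032332, chr9:79598991-79718831, minus strand) had normalized read counts of 24697, 23979, 17721, 21182 and 18138 in FAP-ctrl and of 33845, 24808 and 19621 in FAP-no cilia. The difference rested on FAP-no cilia 1, the highest of all libraries, while FAP-no cilia 3 lay within the FAP-ctrl range. The log2 difference was 0.28 ± 0.18 (SE), 0.07 without FAP-no cilia replicate 1, 0.47 without FAP-no cilia replicate 3 and 0.06 ± 0.21 over the male libraries. The nearest genes by constant ratio were Uck2, Rhob and Chst11 (SD 0.097 to 0.115), and Col14a1 was at place 2899 (SD 0.286). Seen from Col14a1, Col12a1 was at place 6536, with that SD above the median from Col14a1 (0.263).

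Col14a1 encodes collagen XIV, a close relative of collagen XII in structure that binds decorin on fibrils. Col14a1 (ENSMUSG00000022371, chr15:55307750-55520803, plus strand) had normalized read counts of 21242, 18513, 14010, 18173 and 16489 in FAP-ctrl and of 17485, 14648 and 15166 in FAP-no cilia. The FAP-ctrl range enclosed that of FAP-no cilia, and the log2 difference was -0.16 ± 0.14 (SE), or -0.34 ± 0.13 over the male libraries. With 1 library left out it ran from -0.24 (without FAP-ctrl replicate 3) to -0.09 (without FAP-ctrl replicate 1). The ratio of Col12a1 to Col14a1 per kb was 0.535, 0.596, 0.583, 0.537 and 0.507 in FAP-ctrl, against 0.891, 0.780 and 0.596 in FAP-no cilia. FAP-no cilia 1 and 2 thus lay above all FAP-ctrl libraries, and FAP-no cilia 3 was at the highest FAP-ctrl value. Among the other chains, Col5a2 was at place 82 from Col14a1 (SD 0.143), Col6a3 at 188 and Col3a1 at 364.

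Col16a1 encodes collagen XVI, which has several short helices and is found near fibrillin microfibrils and on collagen fibrils. Col16a1 (ENSMUSG00000040690, chr4:130047840-130099283, plus strand) had normalized read counts of 5486, 5472, 2464, 3714 and 5626 in FAP-ctrl and of 3930, 5617 and 3635 in FAP-no cilia. Both groups held high and low libraries and overlapped over most of their range. The log2 difference was -0.01 ± 0.27 (SE) and had either sign when 1 library was left out, from -0.21 to 0.11, and it was -0.35 ± 0.17 over the male libraries. Its nearest genes were Ndufa11, Atp5d and Timm13 (SD 0.097 to 0.113), which serve mitochondria, and Col1a1 was at place 67.

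Col20a1, which encodes a little-studied FACIT chain, was the gene of the 9 with the lowest level in FAP-no cilia relative to FAP-ctrl. Col20a1 (ENSMUSG00000016356, chr2:180986535-181018363, plus strand) had normalized read counts of 158, 180, 169, 152 and 125 in FAP-ctrl and of 60.5, 93.2 and 55.2 in FAP-no cilia. All 3 FAP-no cilia libraries were below all 5 FAP-ctrl libraries, with 48 to 63 reads against 137 to 259. The means were 157 ± 20.8 (SD, n = 5) and 69.6 ± 20.6 (SD, n = 3), for a log2 difference of -1.19 ± 0.21 (SE) with an adjusted p of 0.141 in limma-trend. On the recovered reads DESeq2 gave a log2 difference of -1.21 with an adjusted p of 0.000101, and edgeR an adjusted p of 0.179. The difference lay between -1.41 and -1.04 with any 1 library left out and was -1.30 ± 0.29 over the male libraries. Col20a1 shares 79 exon bases with BX649560.1 on the same strand, which stood at 127, 125, 113, 129 and 128 in FAP-ctrl and at 111, 62.7 and 91.9 in FAP-no cilia, so the assignment of reads between them is uncertain. Its 250 bases before the start held none of the 5 motifs searched, the Gli site included, and are shown as the window of the gene with the widest gap between the groups.
Col20a1, chr2:180986285-180986534, plus strand, GRCm38.p6: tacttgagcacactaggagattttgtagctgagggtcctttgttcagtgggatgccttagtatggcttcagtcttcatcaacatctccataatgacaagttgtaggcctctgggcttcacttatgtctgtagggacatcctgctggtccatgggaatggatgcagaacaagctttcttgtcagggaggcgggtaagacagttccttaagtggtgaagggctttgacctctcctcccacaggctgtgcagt

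All 9 genes passed the filter on low values, and limma-trend called 0 of them after Benjamini-Hochberg adjustment over all genes, where it called 0.00677% of the genes tested. Their adjusted p-values in that fit ran from 0.141 to 0.993, and 3 of the 9 (Col6a5, Col6a6 and Col20a1) had an unadjusted p under 0.05, all lower, against 10.8% of all genes in either direction and 6.09% lower. DESeq2 called 1 of the 9, Col20a1, against 1.22% of all genes in either direction and 0.698% lower, and edgeR called 0, against 0.00677%. The groups did not overlap for 1 of the 9 genes, Col20a1, which was lower, against 3.69% of all genes lower without overlap, 3.62% higher and 7.31% in either direction. FAP-ctrl 3 was the only single library left out for a count of overlap. A Dixon outlier test flagged 0 of 23 sets of FAP-ctrl values of these genes and their ratios. Without FAP-ctrl 3 the FAP-no cilia libraries were below all others for 4 of the 9 (Col6a1, Col6a2, Col6a6 and Col20a1), and 0 of the 9 above all others, against 5.88% and 6.78% of all genes (12.7% in either direction). In the male libraries this held for 7 of the 9, all but Col12a1 and Col16a1, against 12.8% of all genes lower, 13.4% higher and 26.2% in either direction. The difference was negative for 8 of the 9 genes, against 48.5% of all genes, and in the male libraries also for 8, against 49.6%. The median over the 9 was -0.31, against 0.0077 over all genes. Since the genes were chosen with this comparison known, these counts describe the 9 genes and nothing is read from them.

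**Figure D4:**
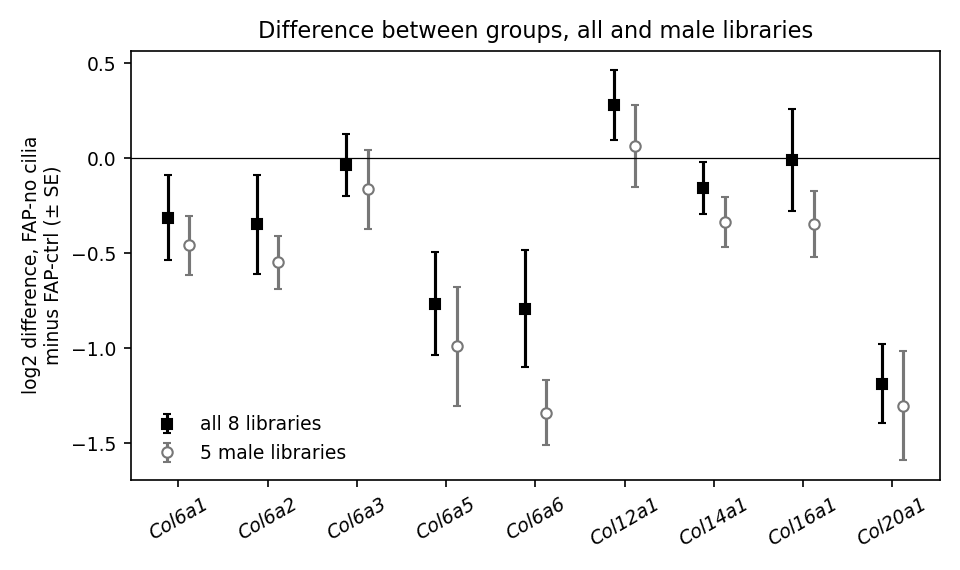
Log2 difference of each gene (FAP-no cilia minus FAP-ctrl, ± SE) over all 8 libraries (black squares) and over the 5 male libraries (grey circles). The male value is the lower of both for all 9 genes, Col12a1 is the only positive one over 8 libraries, and Col20a1 has the most negative value over 8 libraries (-1.19) and Col6a6 over the male libraries (-1.34).

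Among the chains of the same families outside the 9, 3 of 6 passed the filter, with 0 higher, 3 lower and 0 called, and a median log2 difference of -0.22, or -0.60 without FAP-ctrl replicate 3. It was -0.55 without FAP-no cilia replicate 1. Col9a3, a chain of the cartilage FACIT collagen IX, had normalized read counts of 28.0, 32.1, 60.6, 28.6 and 61.1 in FAP-ctrl and of 12.6, 19.7 and 27.1 in FAP-no cilia, which did not overlap (log2 difference -1.02 ± 0.38 SE). Col6a4 (28.7 ± 18.2 and 22.5 ± 12.5, SD) and Col22a1 (17.7 ± 4.0 and 14.8 ± 0.409) overlapped between the groups. Col9a1, Col9a2 and Col19a1 did not pass the filter.

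Set beside the fibril-forming collagens, to which FACIT collagens attach, 5 of 11 tested genes had a positive and 6 a negative difference, with a median of -0.16 and 0 called by limma-trend. The median was -0.30 without FAP-ctrl replicate 3, and -0.07, -0.10 and -0.09 without FAP-ctrl replicate 5, FAP-ctrl replicate 1 and FAP-no cilia replicate 3. The most abundant of these, Col3a1 (476806 ± 89120 and 477861 ± 51481, SD), Col1a2 (322242 ± 63173 and 330165 ± 21284) and Col1a1 (152774 ± 49165 and 149340 ± 14859), differed by far less than the spread of FAP-ctrl. DESeq2 called 1 gene of this list (adjusted p = 0.0369), the minor fibril chain Col24a1, named after its values were seen, at 246 ± 23.6 in FAP-ctrl against 150 ± 42.8 (SD) in FAP-no cilia. The ratio of Col6a2 to Col1a1 per kb was 0.172, 0.192, 0.188, 0.20 and 0.201 in FAP-ctrl, against 0.122, 0.152 and 0.171 in FAP-no cilia, with the highest FAP-no cilia library just below the lowest FAP-ctrl library. Of all genes tested, 7.31% did not overlap between the groups. Several ratios were examined, and nothing is read from this ratio. For Col6a1 to Col1a1 the groups overlapped, at 0.514 to 0.643 and 0.395 to 0.533. Col6a3 to Col1a1 ranged from 0.313 to 0.625 in FAP-ctrl and from 0.361 to 0.441 in FAP-no cilia.

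Of the receptors and binding partners of collagen VI, 13 of 14 passed the filter, with 7 higher, 6 lower, 0 called and a median of 0.07, which was -0.0082 without FAP-ctrl replicate 3. The receptor genes Antxr1 (9530 ± 597 in FAP-ctrl, against 9491 ± 764 in FAP-no cilia, SD) and Antxr2 (3463 ± 185 and 3645 ± 300) overlapped between the groups, as did Cspg4, the proteoglycan NG2 (349 ± 99.8 and 361 ± 82.4), and the integrin subunit Itgb1 (36321 ± 2496 and 41135 ± 3585). Groups did not overlap for 4 partners, against 7.31% of all genes. Biglycan (Bgn), which binds collagen VI, was higher at 205462 ± 9013 (SD, n = 3) against 177517 ± 14354 (SD, n = 5), and Matn3 was higher at 32.6 ± 8.98 against 22.4 ± 3.86. The nearest values of FAP-no cilia and FAP-ctrl were close, at 196265 and 195810 for Bgn and at 26.3 and 25.7 for Matn3. The matrilins Matn2 (5936 ± 537 against 7504 ± 634) and Matn4 (23.7 ± 8.58 against 47.8 ± 15.8), adaptors between collagen VI and other matrix, were lower. The low counts of Matn3 and Matn4 limit the precision of their values.

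All 6 binding partners of FACIT collagens were tested, with 4 higher, 2 lower, 0 called and a median of 0.19, or 0.12 without FAP-ctrl replicate 3. It was 0.06 without FAP-no cilia replicate 3. Fibromodulin (Fmod), a small proteoglycan on fibrils, stood at 1673, 1613, 936, 1569 and 2085 in FAP-ctrl and at 2281, 2606 and 2587 in FAP-no cilia, which did not overlap. Tenascin-X (Tnxb), which links FACIT collagens to the matrix, stood at 3632 ± 683 and 2828 ± 316 (SD) and overlapped. Decorin (Dcn), the partner of collagen XIV, stood at 105385 ± 19095 and 110790 ± 8346 (SD) and overlapped. Of 18 genes for folding and modification of collagen chains 17 were tested, with 10 higher, 7 lower, 0 called and a median of 0.05, which ran from -0.00094 (without FAP-ctrl replicate 4) to 0.14 (without FAP-ctrl replicate 2). Mia3 was listed at 0 in every library. At an unadjusted p under 0.05 in limma-trend were 1 of the other chains of both families, 3 fibril-forming collagens, 4 collagen VI partners, 2 FACIT partners and 2 folding genes, against 10.8% of all genes tested. None of these lists had a gene called by edgeR, and DESeq2 called 0 in each of these 5 lists but that of the fibril-forming collagens.

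Markers of other cell types were present. Of the 8 tenocyte markers 7 passed the filter and all 7 had a positive difference, with a summed level of 21931 to 33055 in FAP-ctrl and of 40821, 27876 and 45358 in FAP-no cilia 1 to 3, while Scx stayed at or below 7.88. DESeq2 called 1 tenocyte marker, Prg4 (adjusted p = 0.0185), and 1 FAP marker, Thy1 (adjusted p = 0.0156), both higher in FAP-no cilia. Of the 10 macrophage and monocyte markers 9 had a positive difference, with sums of 619 to 2494 in FAP-ctrl and of 1328, 4188 and 1635 in FAP-no cilia 1 to 3, so that only FAP-no cilia 2 lay above the FAP-ctrl range. The mural cell sums were 2423 to 3511 in FAP-ctrl, against 2880, 3174 and 3655 in FAP-no cilia 1 to 3. Of the 7 mural markers tested 4 were higher and 3 lower. Among them Rgs5 stood at 838 in FAP-no cilia 3 and at 166 or below in every other library. Endothelial sums were 584 to 969 in FAP-ctrl, against 656, 715 and 1593 in FAP-no cilia 1 to 3, so that only FAP-no cilia 3 lay above the FAP-ctrl range. Schwann cell sums were 190 to 298 and 125 to 229, with Sox10 at 0 in 5 of the 8 libraries and at most 1.86 in the others. Satellite cell sums were 213 to 370 and 118 to 308, and muscle fibre sums 252 to 325 and 155 to 218, with Myh1 and Myh4 at or below 3.47 in every library. Erythroid sums were 6.38 to 266 and 11.4 to 71.7, and the sums of the 8 FAP markers 181864 to 297461 and 229588 to 251842. Their part in the values of Col12a1 and the other 8 genes was not tested.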

How the data were processed

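The deposited values are a signal per gene: the authors used STAR to align single-end reads of 50 bases to GRCm38 and divided read counts by DESeq size factors, per the series design text. Versions, the counting tool and its strand setting were not given in the sources used here, so overlapping and antisense genes may not be separable. In each library 100% of values were whole multiples of 1 read within 0.01 reads, 0.610 to 1.79 normalized reads each. On the recovered reads, DESeq2 called 177 genes and edgeR 1. Symbols, exons and coordinates are from GENCODE release M21 (32919 of 37991 identifiers matched). Promoter sequences are from RefSeq (GRCm38.p6), with windows for 7 of the 9 genes; Col12a1 and Col14a1 had none.

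Genes at 10 or more in 3 or more libraries (14768) were compared on log2(value + 1) by limma-trend, and a Benjamini-Hochberg adjusted p under 0.05 was a call. The labels do not say whether libraries came from separate animals, so p-values measure the spread between these libraries. Replicates of a group differed beyond sampling noise (chi-square per degree of freedom 18.1 to 95.0). The genes, lists and motifs were chosen with earlier results of these data known. Named genes were the 9 genes, Ift88, Pdgfra and members of 3 partner and chain lists. Up to 4 of the most abundant genes of the other lists and the nearest 3 genes by constant ratio were also named. Col24a1, Mia3, Sox10, Scx, Myh1, Myh4, Prg4, Thy1 and Rgs5 were named after their values were seen. Alternatives were other pseudocounts, filters, scalings, tools, lengths and covariates, the replicate block, each library left out and, chosen after seeing the data, the male libraries alone. Python 3.11.15 was used with matplotlib 3.10.9, pandas 2.3.3 and numpy 2.4.6, and R 4.3.3 with DESeq2 1.42.0, edgeR 4.0.16 and limma 3.58.1.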

Additional observations from a re-analysis of the deposited data

How the results depend on the processing

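The count of 1 gene called over all genes (Rps24-ps3, a pseudogene named after its values were seen) became 177 with DESeq2 (76 higher, 101 lower), 0 with limma-voom (1392 at an unadjusted p under 0.05) and 1 to 3 with a library left out; edgeR called 1. Col20a1 passed with DESeq2 and with no other setting. Col16a1 changed sign with the replicate block (0.039) and with 5 of the 8 libraries left out in turn (0.07, 0.07, 0.08, 0.06 and 0.11; range -0.21 to 0.11). With the replicate number as a block 1 gene was called. Deviations of same-numbered libraries correlated at -0.070, 0.135 and 0.036, and those of unlike-numbered libraries at -0.258 to 0.134. With so few libraries these values cannot show whether same-numbered libraries were prepared together. With the longest transcript as the length, the log2 ratio of Col6a1 to Col6a2 was 0.95 in FAP-ctrl, against 0.98 in FAP-no cilia (1.61 and 1.65 with all exons), that of Col6a1 to Col6a3 in FAP-no cilia 0.014 (0.16), and that of Col6a2 to Col6a3 -0.66 and -0.97 (-1.18 and -1.49). The median of the other collagen VI and FACIT chains was -0.80 without a filter, and that of the collagen VI partners ran from -0.0082 (without FAP-ctrl replicate 3) to 0.095. Of the other values of the 9 genes, 173 kept their direction and side of the threshold. The cause of these changes was not tested. With 24 to 177 reads per library, Col6a5 is limited by depth.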
